A study of Mustela putorius furo with 2 samples.

Results

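The genes described here encode the receptors for the transmitters glutamate, GABA and glycine. They were taken as every feature of the deposited matrices whose symbol is GRIA, GRIK, GRIN, GRID or GRM followed by a digit, or begins with GABR, GABBR, GLRA or GLRB, leaving out GRINA and GABARAP. This rule found 50 of 28156 features. They are 4 AMPA, 5 kainate, 7 NMDA, 2 delta and 7 metabotropic glutamate receptor genes, 15 genes of GABA-A receptors, 3 of the rho type, 2 of GABA-B and 4 of glycine receptors. GRID2IP was also caught by the rule; it encodes a protein that binds the delta receptor, not a receptor, so 49 receptor genes remained. GRM7, GABRG3 and GLRA3 were not analysed here.

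The nuclei were isolated from frozen somatosensory cortex of ferrets (Mustela putorius furo), whose cortex is folded, and were profiled on the 10x Genomics droplet platform. There were 2 libraries, one from tissue labelled upper band and one from tissue labelled deeper band of the cortex. Their titles count them as replicates 1 and 2 although these region labels differ, and bands here follow the region labels. The labels call both DCX knockout, although the design text speaks of a knocked-down target, and every nucleus shares that genotype. Doublecortin, the protein of DCX, binds microtubules in migrating neurons, and people without it have a smooth cortex or an extra band of neurons beneath it. No wild-type library was analysed here, and age, sex and animal are not given by the labels used. Each band had 1 library, so band cannot be told apart from library or animal, no test between bands was possible. Classes were compared within each library without a test, and every interval below covers counting error only.

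AMPA receptors carry most of the fast excitatory current, and the edited GRIA2 subunit keeps them from passing calcium. NMDA receptors need the obligate subunit GRIN1 together with GRIN2 or GRIN3 subunits. Those built of GRIN1 and GRIN2 respond to glutamate and pass current mainly at a depolarised membrane. Kainate receptors act on both sides of the synapse, delta receptors bind cerebellins and organise synapses, and metabotropic receptors signal through G proteins. GABA-A receptors are chloride channels built mostly of alpha, beta and gamma subunits, while GABA-B receptors are pairs of GABBR1 and GABBR2. Glycine receptors are chloride channels too, with GLRB as the subunit that anchors them.

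The upper-band matrix held 66253015 unique molecular identifiers (UMIs, each one captured RNA molecule) over 7151 barcodes, and the deeper-band matrix 78352064 over 9694. The libraries shared 24 barcode sequences. After filtering, 6261 and 8062 nuclei remained with medians of 7992 and 4880 UMIs. Receptor genes took 1.859% and 1.803% of UMIs (upper and deeper band). DCX itself was at 78.5 and 77.2 CPM (UMIs of the gene per 1000000 UMIs of the group); with no wild-type library this does not check the genotype. GABRQ had no UMI, and 9 of the 50 genes, GABRQ among them, had under 50 UMIs over both libraries; the others are GRIN2C, GRIN3B, GRID2IP, GRM6, GABRA6, GABRE, GABRR1 and GABRR2.

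Nuclei were clustered without the receptor genes, and clusters were named by resemblance to marker lists. The upper and deeper bands gave 3182 and 3424 excitatory nuclei, 1021 and 763 inhibitory nuclei, 388 and 806 astrocytes, 850 and 2035 oligodendrocytes and 125 and 193 oligodendrocyte precursors. Microglia (47 and 66 nuclei) and vascular cells (265 and 150) were few or shallow, and 383 and 625 nuclei stayed unnamed. Within neurons, CUX2 and TLE4 separated upper-layer-like from deep-layer-like excitatory nuclei, and LHX6 and ADARB2 separated inhibitory nuclei that resemble cells of the medial (MGE) and caudal (CGE) ganglionic eminence. CUX2 was at 639 and 689 CPM in upper-layer-like against 9.45 and 23.5 in deep-layer-like nuclei (upper and deeper band). ADARB2 was at 646 and 511 CPM in CGE-like against 7.33 and 3.54 in MGE-like nuclei. Both genes were part of the naming rule, so these levels describe the groups and do not check their names.

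The classes differed in their receptor levels, and most genes peaked in the same class in both libraries. Genes were ranked over 5 classes: excitatory, inhibitory, astrocyte, oligodendrocyte and oligodendrocyte precursor, with microglia and vascular cells left out. Of 39 receptor genes with enough UMIs to rank, 34 peaked in the same class in both. Excitatory nuclei had the highest CPM of 15 genes, among them GRIA2, GRIA3, GRIN1, GRIN2A, GABRB1 and both GABA-B genes. Inhibitory nuclei were highest for 12, among them GRIA1, GRIK1, GRIK2, GRIN2B, GRIN3A, GRM5 and GLRA2. Oligodendrocyte precursors were highest for GRIA4, GRIK3 and GLRB, among others, and astrocytes for GRIK4, GABRA2 and GABRG1. Oligodendrocytes were highest for no gene in both libraries. GRM3 peaked there in the upper band and in astrocytes in the deeper band. Many of these margins were small: GRIA2 was at 1876 CPM in excitatory nuclei and 1815 in oligodendrocyte precursors of the upper band, and 2047 and 1956 in the deeper band.

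**Figure D1:**
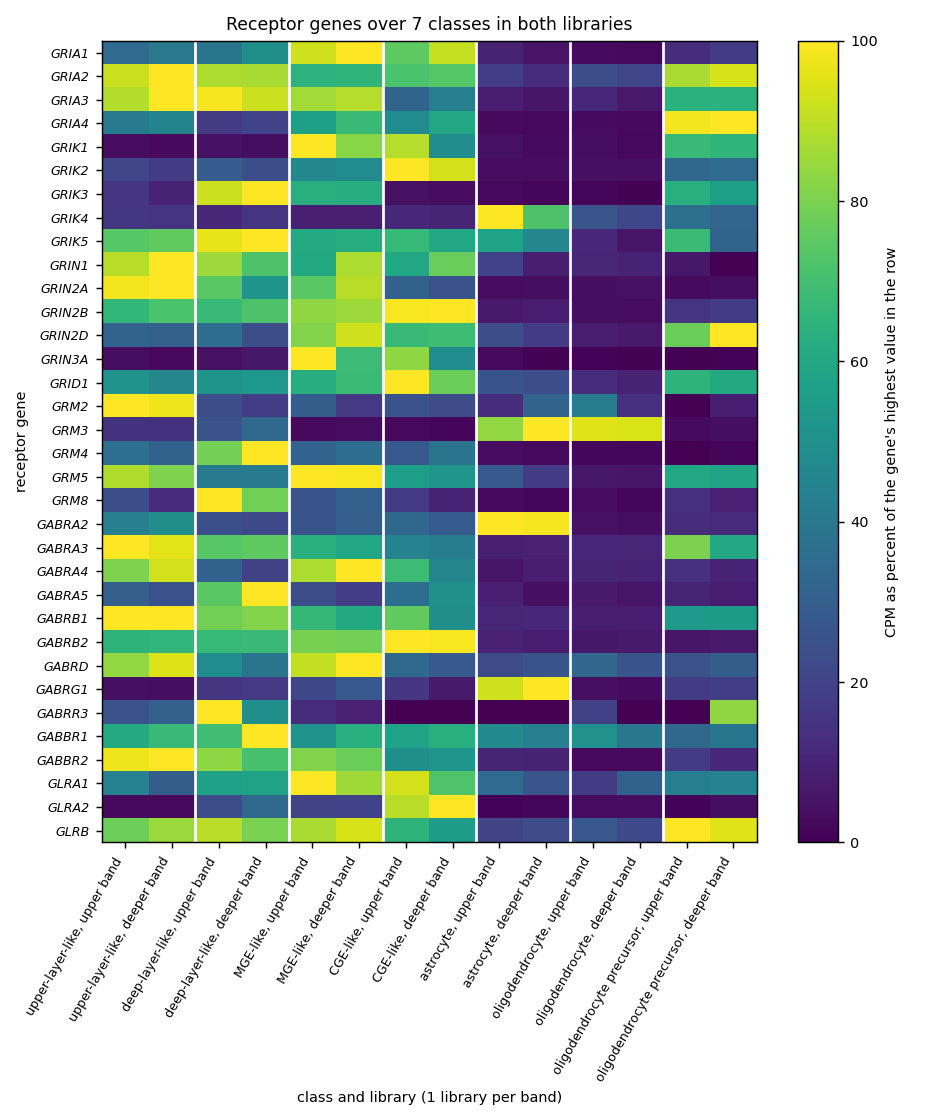
Level of receptor genes (rows) in 7 classes of nuclei for each library (columns), as CPM in percent of the gene's highest value. In both libraries GRIK1 and GRIN3A are brightest in MGE-like columns but are raised in CGE-like columns too, and GRIK1 also in oligodendrocyte precursor columns. GLRA2 is bright in CGE-like columns, GRIK4 and GABRG1 in astrocyte columns and GRM3 in astrocyte and oligodendrocyte columns, in both libraries.

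Inhibitory nuclei were set against excitatory nuclei of the same library. A gene counted as different past 2-fold in both libraries with at least 50 UMIs. Of 39 receptor genes tested, 7 were higher in inhibitory nuclei, beside 7.0% of all genes, and 3 were lower, beside 7.52% of all genes. The median log2 ratio of the receptor genes was -0.18 and -0.06 (upper and deeper band), and over all genes 0.08 and 0.09. The 7 higher genes were GRIA1, GRIK1, GRIK2, GRIN2D, GRIN3A, GABRG1 and GLRA2, and the 3 lower genes were GRM2, GRM3 and GABRR3.

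Among AMPA subunits, GRIA1 went from 706.8 CPM in excitatory to 1502 CPM in inhibitory nuclei of the upper band (log2 ratio 1.09) and from 725.4 to 1679 CPM in the deeper band (1.21). GRIA2, which carries the calcium-blocking site, was at 1876 and 1424 CPM in excitatory and inhibitory nuclei of the upper band and at 2047 and 1413 CPM in the deeper band. The log2 ratios of GRIA2 were -0.40 and -0.53, short of 2-fold. GRIA4 was higher in inhibitory nuclei by 1.09 and 0.73 on the log2 scale and so passed 2-fold in the upper band alone.

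Kainate subunits gave the largest contrast together with GRIN3A. GRIK1, a subunit known from interneurons, was at 32.0 CPM in excitatory and 721.4 CPM in inhibitory nuclei of the upper band (log2 ratio 4.49, interval 4.40 to 4.58). In the deeper band it was at 21.9 and 558.4 CPM (4.67, interval 4.56 to 4.78). GRIK2 was at 1030 and 2683 CPM in the upper band and at 754.9 and 2512 CPM in the deeper band, log2 ratios of 1.38 and 1.73. GRIK3 had opposite signs in the libraries: inhibitory over excitatory was -0.18 for the upper band but 1.12 for the deeper. Inhibitory nuclei held a similar GRIK3 level in both (340.8 and 331.2 CPM), and it was the excitatory level that differed (386.8 and 152.6 CPM).

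Of the NMDA subunits, the glycine-binding GRIN3A was at 14.0 CPM in excitatory and 374.1 CPM in inhibitory nuclei of the upper band (log2 ratio 4.74, interval 4.60 to 4.87). In the deeper band it was at 11.7 and 255.8 CPM (4.45, interval 4.30 to 4.61). GRIN2D, a subunit known for slow decay of the current, was at 10.1 and 26.0 CPM in the upper band and at 9.76 and 27.4 CPM in the deeper band. The common subunits differed little by comparison. GRIN1 had log2 ratios of -0.52 and -0.26, GRIN2A of -0.23 and -0.27, and GRIN2B of 0.40 and 0.30.

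The share of nuclei with a UMI gave the same order for GRIK1 and GRIN3A once every nucleus was thinned to 1500 UMIs. GRIK1 was then seen in 54.67% and 44.37% of inhibitory nuclei (upper and deeper band) and in 4.425% and 2.812% of excitatory nuclei. GRIN3A was seen in 36.28% and 29.8% of inhibitory and in 1.612% and 1.23% of excitatory nuclei. Oligodendrocytes, taken as the background class, had a GRIK1 UMI in 4.416% and 2.162% of nuclei and a GRIN3A UMI in 0.6494% and 0.4324%, so over all excitatory nuclei the GRIK1 share lay at about that background. Some excitatory subclusters were above the oligodendrocyte level, which was 28.2 and 15.2 CPM. GRIK1 was highest in the one led by KLHL14 and HHLA2, at 123.8 and 193.3 CPM, and the next subcluster was at 97.4 and 69.9 CPM. Without thinning, GRIK1 was seen in 83.15% and 73.79% of inhibitory and 21.81% and 14.81% of excitatory nuclei. Thinning left out 15 and 8 inhibitory, 18 and 10 excitatory and 80 and 416 oligodendrocyte nuclei. Median depths before it were 10083 and 9913 UMIs in neurons and 2205 and 1861 UMIs in oligodendrocytes.

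Metabotropic receptors supplied both glutamate receptor genes that were lower in inhibitory nuclei. GRM3, a presynaptic and glial group II receptor coupled to inhibition of cyclic AMP, was at 480.1 CPM in excitatory and 60.6 CPM in inhibitory nuclei of the upper band and at 393.6 and 70.8 CPM in the deeper band. Its log2 ratios were -2.99 and -2.47. GRM2, the other group II receptor, was at 21.2 and 7.11 CPM in the upper band and at 23.3 and 4.29 CPM in the deeper band, log2 ratios of -1.57 and -2.44. GRM8, a presynaptic group III receptor, had opposite signs in the libraries, -0.47 and 0.72; its level was 708.8 and 305.8 CPM in excitatory and 513.2 and 503.3 CPM in inhibitory nuclei.

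Of the GABA and glycine receptor genes, GABRG1 and GLRA2 were higher and GABRR3 was lower past 2-fold. GABRG1, a gamma subunit, was at 14.5 and 35.1 CPM in excitatory and inhibitory nuclei of the upper band and at 8.89 and 39.0 CPM in the deeper band. GLRA2, an alpha subunit known from the developing brain, was at 24.5 and 121.5 CPM in the upper band (log2 ratio 2.31) and at 14.995 and 138.4 CPM in the deeper band (3.21). GABRR3, a rho subunit, was lower at 2.33 and 0.466 CPM and at 1.75 and 0.330 CPM, from few UMIs.

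**Figure D2:**
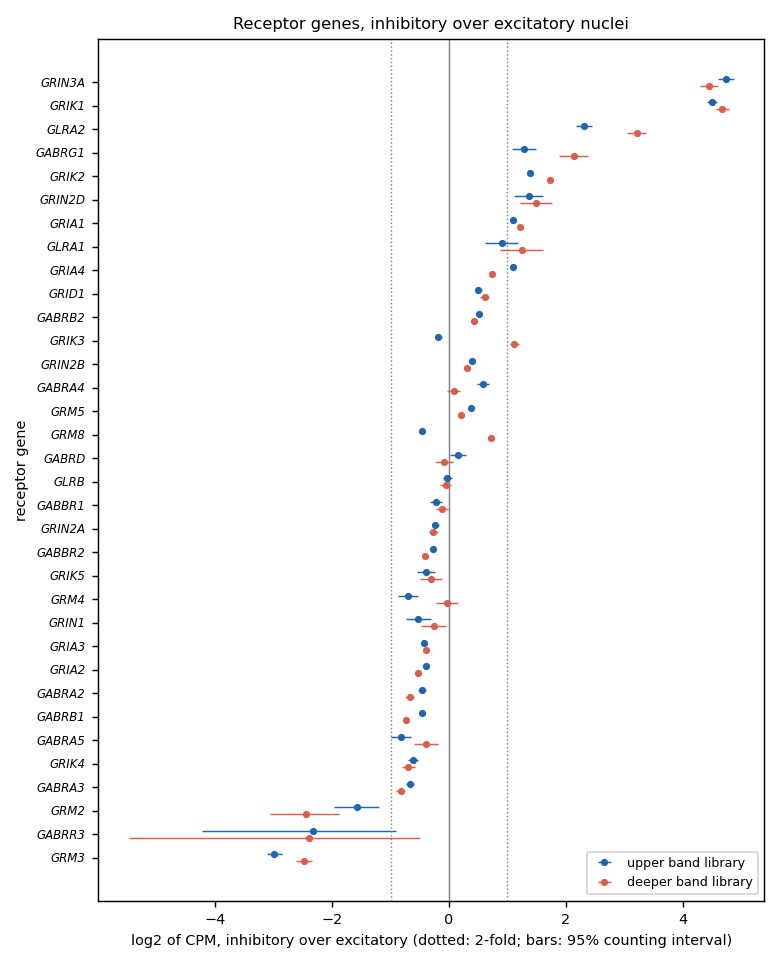
Log2 ratio of CPM in inhibitory over excitatory nuclei (horizontal axis) for each receptor gene with enough UMIs (rows), 1 point per library with its 95% counting interval and dotted lines at 2-fold. GRIK1 and GRIN3A lie beyond 4 in both libraries and GRM3 below -2, while GRIK3 and GRM8 fall on opposite sides of 0 in the 2 libraries.

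Shares of UMIs within a subunit group put these levels on 1 scale, compared here between classes and not between genes, whose lengths differ. Of AMPA subunit UMIs, GRIA2 made up 37.5% and 36.1% in excitatory (upper and deeper band) and 24.1% and 21.8% in inhibitory nuclei. GRIA4 made up 17.3% and 23.1% in excitatory, 31.1% and 33.6% in inhibitory and 50.6% and 49.3% in precursor nuclei. GRIN2A took 19.97% and 19.6% of GRIN2 UMIs in excitatory and 13.8% and 14.0% in inhibitory nuclei. Of GABA-A alpha subunit UMIs, GABRA2 took 85.7% and 87.2% in astrocytes.

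**Figure D3:**
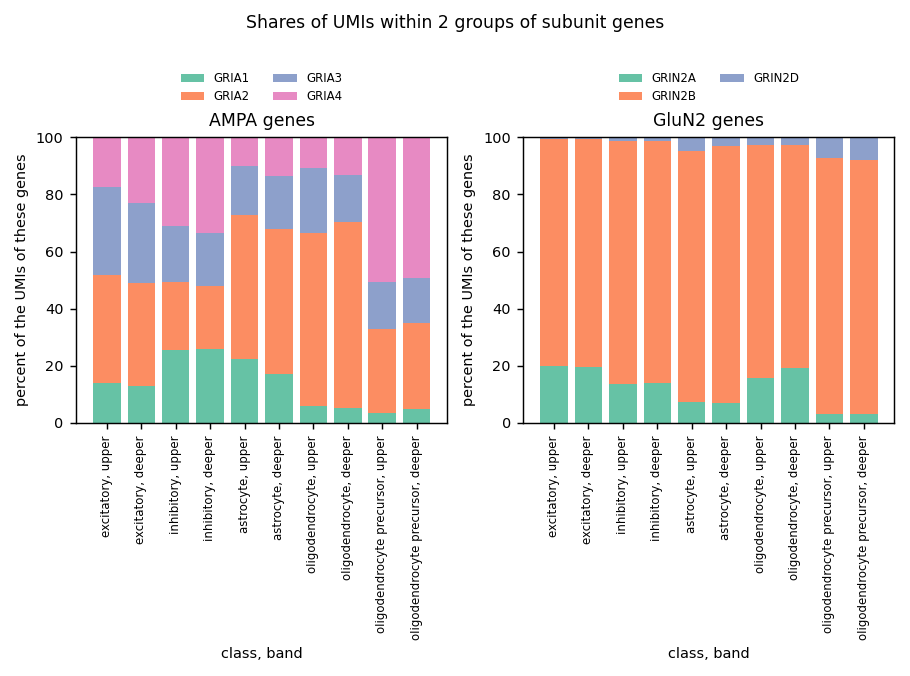
Share of the UMIs of AMPA and GRIN2 subunit genes (vertical axes, percent) taken by each gene, for 5 classes in the upper and the deeper band. GRIA4 is the largest block of the AMPA genes in oligodendrocyte precursors, at 50.6% and 49.3%; in astrocytes and oligodendrocytes all 4 AMPA genes were below their neuron level, so those bars are given as values only.

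Genes for receptor partners were also read from lists of auxiliary, scaffold and anchoring proteins. Their counts stand beside 7.0% of all genes higher and 7.52% lower in inhibitory nuclei, and no list is read as different from other genes. Of 18 AMPA receptor auxiliary and trafficking genes tested, 5 were higher in inhibitory nuclei (CACNG4, SHISA6, GRIP1, GRIP2 and NSG1) and 2 lower (CACNG5 and NPTX2). CACNG4, a transmembrane regulator of AMPA receptors, had log2 ratios of 5.87 and 4.54, and GRIP1, a scaffold that binds GRIA2, had 3.18 and 4.55. Of 5 kainate and delta receptor partners, 2 were higher and 2 lower: the kainate auxiliary subunit NETO2 had 2.09 and 2.42 and the cerebellin CBLN4 2.82 and 5.43, against -1.59 and -1.39 for CBLN2 and -2.79 and -2.50 for C1QL3. Of 14 postsynaptic scaffold genes, 0 were higher and 3 lower (DLG1, HOMER1 and CAMK2B), with HOMER1, which links group I metabotropic receptors to calcium stores, at -2.22 and -2.69. Among 6 partners of metabotropic receptors, TAMALIN alone differed, at -4.00 and -2.45. Of 18 anchoring and assembly genes of GABA and glycine receptors, INSYN2A alone passed, higher by 3.09 and 3.47, and of 8 GABA-B partners KCTD15 alone, higher by 1.38 and 1.68.

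Deep-layer-like excitatory nuclei had more GRIK3, GRM8 and GLRA2 and less GABRA4, GRIA4 and GRM2 than upper-layer-like nuclei. Of 39 receptor genes tested, 6 were more than 2-fold higher in both libraries, beside 4.07% of all genes, and 4 were lower, beside 5.25%. The receptor genes' median log2 ratio was 0.03 and 0.01 (upper and deeper band), and that of all genes -0.02 and -0.01. Compared were 1373 and 2883 upper-layer-like nuclei with 785 and 237 deep-layer-like nuclei.

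GLRA2 had the largest ratio: it was at 9.01 CPM in upper-layer-like and 79.9 CPM in deep-layer-like nuclei of the upper band and at 8.50 and 116.9 CPM in the deeper band, log2 ratios of 3.15 and 3.78. GRIK3 was at 118.3 and 689 CPM in the upper band (2.54, interval 2.47 to 2.62) and at 74.7 and 748.4 CPM in the deeper band (3.32, interval 3.23 to 3.41). GRM8 was at 421.4 and 1748 CPM (2.05) and at 210.1 and 1378 CPM (2.71). All 3 were higher in the deep-layer-like group whichever library was read. GRM4, another group III receptor, was higher by 1.12 and 1.69, GABRA5, an alpha subunit known for tonic inhibition, by 1.30 and 1.99, and GABRG1 by 1.91 and 2.1004.

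Among the lower genes GRIA4 was at 1302 and 554.5 CPM in the upper band and at 1437 and 643.2 CPM in the deeper band, log2 ratios of -1.23 and -1.16. GRM2 was lower, at -2.06 and -2.42, and GABRA4 at -1.37 and -2.26. The group I receptor GRM5 was lower, at -1.10 and -0.98 and so passed in the upper band alone. Of the common subunits, GRIA2 had log2 ratios of -0.07 and -0.20, GRIN1 of -0.07 and -0.47, GRIN2A of -0.40 and -0.95 and GRIN2B of 0.03 and 0.01.

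CGE-like and MGE-like inhibitory nuclei differed most in GRIK3. Of 37 receptor genes tested, 1 was higher in CGE-like nuclei in both libraries, beside 3.94% of all genes, and 4 were lower, beside 4.71%. GRIK3 was at 473.1 CPM in MGE-like and 33.7 CPM in CGE-like nuclei of the upper band (log2 ratio -3.81) and at 465 and 26.1 CPM in the deeper band (-4.16). GLRA2 went the other way, from 69.5 to 302.6 CPM (2.12) and from 67.8 to 337.7 CPM (2.32). GRIN2A, the subunit of mature NMDA receptors, was at 265.8 and 111.1 CPM in the upper band and at 317.5 and 91.3 CPM in the deeper band.

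GRIA3 was lower in CGE-like nuclei, at -1.42 and -1.05, and so was GABRD, a subunit of extrasynaptic GABA-A receptors, at -1.39 and -1.83. GRIK2 was higher by 1.10 and 0.96 and so passed 2-fold in the upper band alone. In common subunits the log2 ratio was 0.15 and 0.17 for GRIA2, -0.02 and -0.19 for GRIN1 and 0.25 and 0.23 for GRIN2B. GRIN2A made up 5.4% and 4.4% of GRIN2 UMIs in CGE-like and 13.9% and 15.8% in MGE-like nuclei.

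**Figure D4:**
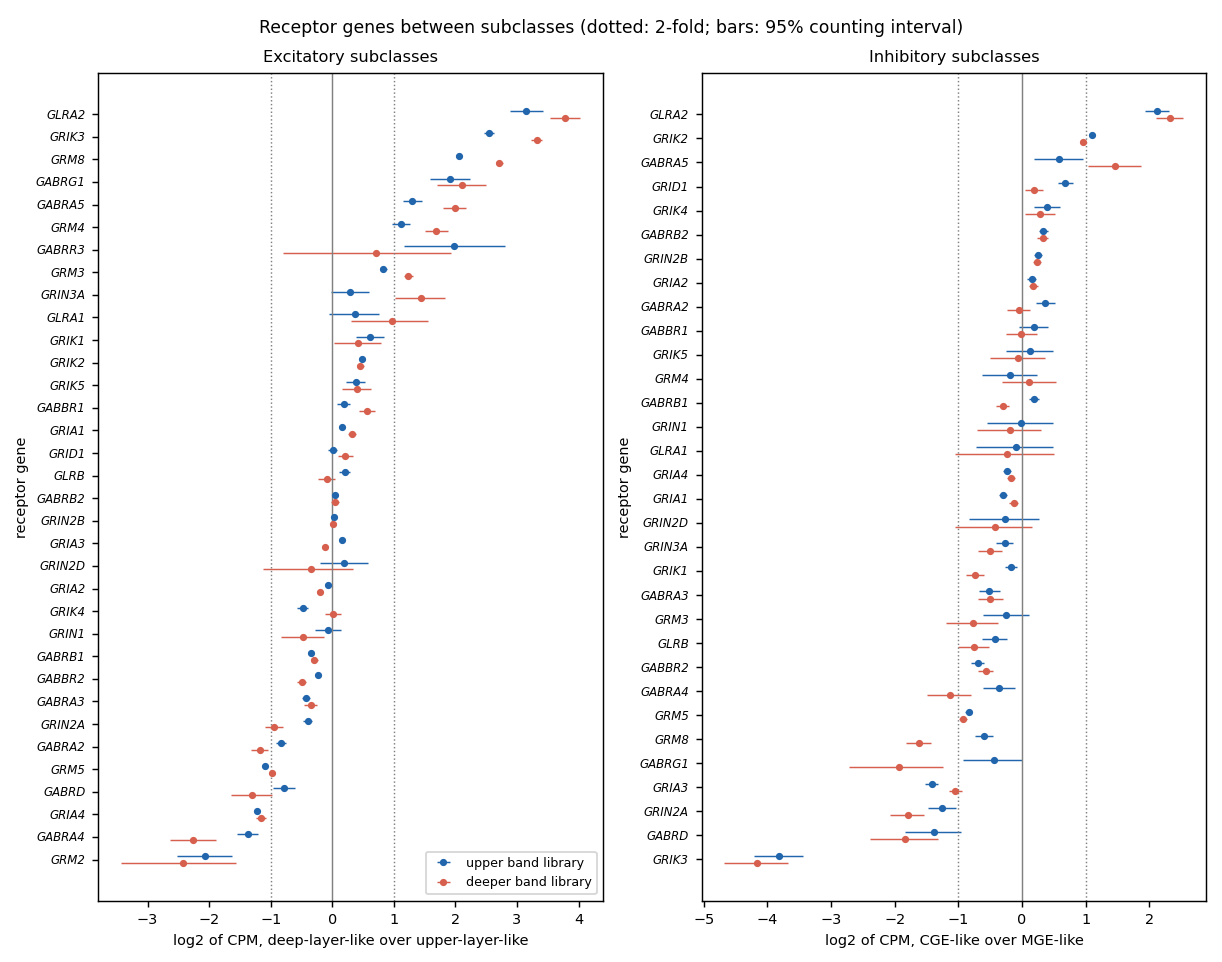
Log2 ratio of CPM for deep-layer-like over upper-layer-like excitatory nuclei (left) and CGE-like over MGE-like inhibitory nuclei (right) for each receptor gene (rows), 1 point per library with its 95% counting interval and dotted lines at 2-fold. GLRA2 is to the right of 2-fold in both panels, whereas GRIK3 is to the right in the left panel and to the left, near -4, in the right panel.

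Partner genes were also past 2-fold between these subclasses, beside 4.07% of all genes higher and 5.25% lower in deep-layer-like nuclei and 3.94% and 4.71% in CGE-like nuclei. In deep-layer-like over upper-layer-like nuclei, 3 of 17 AMPA receptor auxiliary genes were higher, CACNG5 (1.34 and 1.77), GRIP1 (3.25 and 3.84) and GRIP2 (1.41 and 1.52). NETO2, the kainate auxiliary subunit, was higher by 1.08 and 1.76, and C1QL3, a ligand of adhesion receptors, lower, at -2.50 and -2.95. TRPC5, a channel opened downstream of group I receptors, was lower, at -4.84 and -3.56. Of 7 GABA-B partners, 3 were lower: KCTD16, AJAP1 (-2.98 and -2.36) and RGS7 (-1.33 and -1.18). In CGE-like over MGE-like nuclei, CNIH3, a cornichon that slows AMPA receptors, was higher by 5.03 and 5.22, and CACNG4, SHISA9, PLCB4 and TRPC5 were higher as well, by between 1.37 and 2.24. DLGAP2 and PLCL1 were lower there, at -1.15 and -1.57 and at -1.25 and -1.66.

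Subclusters showed how unevenly some receptors were spread within a class. Over 20 excitatory subclusters of the upper band GRM8 ran from 18.3 to 3565 CPM with a median of 235.8, and over 19 of the deeper band from 10.9 to 2962 CPM. Its highest subcluster in both libraries was a deep-layer-like one led by KLHL14 and HHLA2, which was also highest for GLRA2 (147.2 and 215.8 CPM) and GABRA5 (290.7 and 251.7 CPM). GRIK3 ran from 25.3 to 876.3 CPM and from 11.8 to 899.7 CPM and was highest in a deep-layer-like subcluster led by GFRA1 and TRPC7. By contrast GRIA2 ran only from 1434 to 2326 CPM and from 1417 to 2332 CPM. Among inhibitory subclusters, one led by PAX6 and ITGBL1 was highest for GRIK2 (7404 and 5440 CPM). One led by ADAMTS5 and GLI2 was highest for GABRG1 (215.1 and 306.8 CPM, with the next subcluster at 94.7 and 89.7). One led by TFCP2L1 and CASQ2 was highest for GABRD (168.0 and 158.0 CPM).

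Glia held few receptor genes above the neuron level. GRM3 was above it in astrocytes and oligodendrocytes, and GRIK4 in astrocytes and precursors. Free RNA in the droplets limits what can be read below that level. A list of 12 neuron transcripts, 11 of them measured, summed in astrocytes to 11.4% and 10.7% of its neuron level (upper and deeper band), in oligodendrocytes to 13.6% and 12.4% and in precursors to 13.5% and 13.1%. Single genes of that list ran in astrocytes from 2.603% to 282% of the neuron level in the upper band and from 2.155% to 94.85% in the deeper band, and SLC17A7, which marks excitatory neurons, was at 51.4 and 37.7 CPM in astrocytes. A receptor gene below its neuron level is therefore given as a value only. In microglia the list reached 26.8% and 20.7%, and in vascular cells 36.5% and 67.3%. No receptor gene was over 2-fold above neurons in either, 0 of 39 in each, beside 13.2% and 10.3% of all genes. Below neurons were 24 in microglia, beside 7.57%, and 5 in vascular cells, beside 2.32%, with no reading drawn from either.

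Astrocytes had 4 of 39 receptor genes more than 2-fold above neurons, beside 13.4% of all genes, and 28 below, beside 17.8%. GRIK4, a high-affinity kainate subunit, was at 215.5 CPM in neurons and 1470 CPM in astrocytes of the upper band (log2 ratio 2.77) and at 206.8 and 1057 CPM in the deeper band (2.35). GRM3 was at 401.7 and 1930 CPM (2.26) and at 349.1 and 2299 CPM (2.72). GABRA2 was at 292.1 and 834.4 CPM (1.51) and at 369.5 and 822 CPM (1.15), and GABRG1 at 18.3 and 168.4 CPM (3.20) and at 13.04 and 181.5 CPM (3.80). These are a metabotropic receptor that inhibits cyclic AMP, a kainate subunit and an alpha and a gamma subunit of GABA-A receptors.

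Oligodendrocyte precursors had 3 of 39 receptor genes above neurons, beside 9.96% of all genes, and 18 below, beside 10.1%. GRIA4 was at 1048 CPM in neurons and 3138 CPM in precursors of the upper band and at 1431 and 3198 CPM in the deeper band, log2 ratios of 1.58 and 1.16. GRIK1 was at 160.9 and 526.2 CPM (1.71) and at 96.0 and 507.0 CPM (2.40), and GRIK4 was higher by 1.33 and 1.21. GRIA2 stood at the neuron level, with 1815 and 1956 CPM in precursors and log2 ratios of 0.02 and -0.00. Precursors had 125 and 193 nuclei, so genes with low levels carried few UMIs: GABRG1 was at 32.6 and 33.7 CPM. Oligodendrocytes had 1 gene above neurons, beside 13.6% of all genes, and 32 below, beside 25.8%. That gene was GRM3, at 401.7 and 2183 CPM in the upper band and 349.1 and 2169 CPM in the deeper band. GRIK4 was 0.85 and 0.61 above neurons there. Precursors by contrast had a GRM3 UMI in 8.403% and 8.649% of nuclei thinned to 1500 UMIs, against 89.22% and 90.67% of oligodendrocytes.

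Between bands, excitatory nuclei differed in GRIK3 and GRM8, lower in the deeper band, and in GRIA4, higher there. The bands also differed in which excitatory nuclei they held. Of excitatory nuclei, 43.15% and 84.2% (upper and deeper band) were upper-layer-like and 24.67% and 6.922% deep-layer-like. The rest got no subclass name, a larger part of the upper band than of the deeper band. Among them was the largest upper-band subcluster, with 466 nuclei (14.64%) there and 144 (4.206%) in the deeper band. CUX2 over all excitatory nuclei was at 295.8 and 591.1 CPM and TLE4 at 208.7 and 100.3 CPM. GRIK3 and GRM8 are the genes given above as higher in deep-layer-like nuclei, and GRIA4 as lower. Fewer nuclei of a type and less RNA per nucleus cannot be told apart in the summed value. Transcripts of oligodendrocytes in excitatory nuclei were at 0.66% and 0.441% of their oligodendrocyte level, 7 of 8 listed genes being measured; their part in the results was not tested.

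A gene counted as different between bands past 1.5-fold with at least 50 UMIs. Of 41 receptor genes tested in excitatory nuclei, 1 was higher in the deeper band, beside 4.19% of all genes, and 5 were lower, beside 7.68%. The median log2 ratio, deeper over upper band, was 0.04 for receptor genes and -0.03 for all genes. GRIK3 went from 386.8 CPM in the upper to 152.6 CPM in the deeper band (log2 ratio -1.34, interval -1.39 to -1.30) and GRM8 from 708.8 to 305.8 CPM (-1.21, interval -1.24 to -1.18). GRIA4 went up from 866.2 to 1311 CPM (0.60, interval 0.58 to 0.62). Smaller or less abundant were GLRA2, from 24.5 to 14.995 CPM (-0.71, interval -0.86 to -0.56), GABRG1, from 14.5 to 8.89 CPM (-0.70, interval -0.90 to -0.50), and GLRA1, from 9.43 to 6.27 CPM (-0.59, interval -0.83 to -0.35).

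When 19 excitatory subclusters were weighted equally, a weighting chosen after the data had been seen, none of these 6 genes was past 1.5-fold. GRIA4 then had a log2 ratio of 0.07 and was higher in 11 of 19 subclusters, GRIK3 had -0.13 and was lower in 14, and GRM8 had -0.03 and was lower in 15. GLRA2 changed sign, to 0.22, GABRG1 was at -0.15 and GLRA1 at -0.25. With this weighting 0 receptor genes were higher, beside 3.89% of all genes, and 1, GABRP, was lower, beside 4.11%; GABRP had few UMIs. Among genes within 1.5-fold, GRIK2 was lower in 17 of 19 subclusters with a log2 ratio of -0.12, and GABBR1 was higher in 16 of 19 with 0.25.

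Other receptor genes of excitatory nuclei lay within 1.5-fold. GABRA4 and GABRA2 were higher in the deeper band by 0.50 and 0.34, and GRIK1, GABRA5, GRIK2 and GRM4 were lower, at -0.55, -0.47, -0.45 and -0.42. In the summed values the common glutamate receptor subunits were slightly higher in the deeper band. Their log2 ratios were 0.13 for GRIA2, 0.22 for GRIN1, 0.11 for GRIN2A and 0.14 for GRIN2B. With 19 subclusters weighted equally, GRIA2 was at 0.05, GRIN1 at -0.03, GRIN2A at 0.04 and GRIK1 at -0.03. Partner genes past 1.5-fold stand beside 4.19% of all genes higher and 7.68% lower. Of them, the scaffold GRIP1 was lower, at -1.34, as were CNIH3 at -0.62 and INSYN1 at -0.72. KCTD16, a GABA-B auxiliary subunit at low levels (2.41 and 4.79 CPM), was higher by 0.99. GABARAP, which traffics GABA-A receptors, was higher by 0.69. It was higher in the deeper band in inhibitory nuclei (0.95) and astrocytes (0.78) too, so this was not particular to excitatory nuclei. TRPC5 was higher by 0.60, and CNIH2 by 0.73 with an interval that included 0. GRIP1 is given above as higher in deep-layer-like nuclei, and TRPC5 and KCTD16 as lower. For these genes too, the summed value cannot tell make-up from level per nucleus. CNIH3 (-1.04) and GABARAP (0.79) were past 1.5-fold within upper-layer-like nuclei as well.

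**Figure D5:**
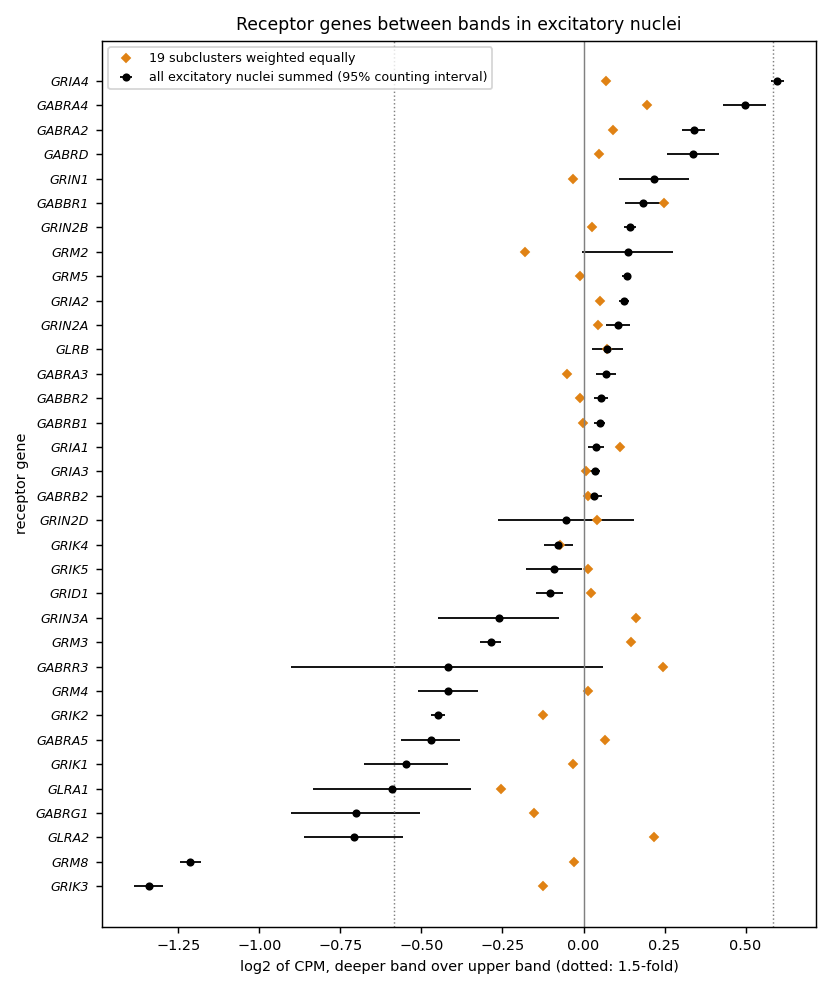
Log2 ratio of CPM in the deeper over the upper band (horizontal axis) for receptor genes of excitatory nuclei with 100 or more UMIs (rows), as black points with 95% counting intervals for all nuclei summed and orange diamonds for 19 subclusters weighted equally, with dotted lines at 1.5-fold. GRIK3 and GRM8 lie at -1.34 and -1.21 summed and at -0.13 and -0.03 with equal weights.

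Within upper-layer-like nuclei 0 of 41 receptor genes were higher in the deeper band, beside 3.23% of all genes, and 5 were lower, beside 4.35%. GRM8 was at 421.4 and 210.1 CPM (log2 ratio -1.004, interval -1.05 to -0.96) and GRIK3 at 118.3 and 74.7 CPM (-0.66, interval -0.75 to -0.57). GRIN3A was lower, at -0.60, as were GLRA1 at -0.59 and GLRA4, a glycine receptor alpha gene with few UMIs, at -0.78. Over the alternatives run the number of lower genes was 2 to 5, with GRM8 among them each time. The make-up of the upper-layer-like group also differed between bands. Its subcluster led by ZNF536 and VWA2 held 92 of 1373 nuclei in the upper and 536 of 2883 in the deeper band. That subcluster had the lowest GRM8 of 19 excitatory subclusters of the deeper band, 10.9 CPM. The part of make-up in these ratios was not tested. Within deep-layer-like nuclei 1 of 38 was higher, beside 6.45%, and 1 was lower, beside 5.89%. The lower gene was GABRA4, at 41.7 and 26.1 CPM (-0.68, interval -1.09 to -0.28). Its ratio turned to 0.17 with nuclei thinned to 1500 UMIs and was -0.52, within 1.5-fold, with no doublets removed. Neither of the pair that led over all excitatory nuclei was past 1.5-fold in deep-layer-like nuclei: GRIK3 was at 689.0 and 748.4 CPM and GRM8 at 1748 and 1378 CPM. The 4 deep-layer-like subclusters differed in size between bands, with the one led by GFRA1 and TRPC7 at 72 and 86 nuclei and the one led by NXPH2 and BMPR1B at 380 and 52. GABRA4 was at 4.53 and 5.60 CPM in the first of these and at 54.4 and 39.9 CPM in the other.

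Inhibitory nuclei were closer between bands. Of 38 receptor genes tested 0 were higher in the deeper band, beside 3.42% of all genes, and 1 was lower, beside 3.84%. It was GRM2, at 7.11 and 4.29 CPM from 61 and 26 UMIs (log2 ratio -0.73, interval -1.45 to -0.04). With no doublets removed GRM2 turned to 0.082, and it was not called with thinned nuclei, with a minimum of 200 UMIs or with subclusters weighted equally. GRIN3A was at 374.1 and 255.8 CPM (-0.55, interval -0.64 to -0.46) and lower in 9 of 11 subclusters with enough UMIs, and GRIK1 at 721.4 and 558.4 CPM (-0.37). GRIN1, the obligate NMDA subunit, was at 24.1 and 33.7 CPM (0.48, interval 0.19 to 0.77). Smaller ratios were 0.28 for GABBR1, 0.26 for GRM4, 0.24 for GRIA4, 0.22 for GRM3, 0.19 for GLRA2 and -0.22 for GABRB1. The other common glutamate receptor subunits lay between -0.01 for GRIA2 and 0.07 for GRIN2A, with GRIN2B at 0.05. With 12 inhibitory subclusters weighted equally, 1 gene, GRIN1, was higher, beside 3.59% of all genes, and 0 were lower, beside 3.12%.

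Within inhibitory nuclei, more receptor genes were past 1.5-fold in CGE-like than in MGE-like nuclei, a comparison added after the data had been seen, with 234 and 230 nuclei. In MGE-like nuclei 0 of 38 receptor genes were higher in the deeper band, beside 3.58% of all genes, and 1 was lower, GRM2, beside 4.29%. In CGE-like nuclei 0 of 36 were higher, beside 5.48%, and 6 were lower, beside 4.78%: GRIK1, GRIN3A, GRM8, GABRA4, GABRB1 and GABRG1. With each library clustered on its own 3 were lower, GRIK1, GRIN3A and GABRG1, while GABRB1 was then at -0.45 and GABRA4 at -0.19. GRIK1 was at 689.7 and 381.2 CPM in the upper and deeper band (log2 ratio -0.86, interval -1.01 to -0.71). The GRIN3A level was 344.6 and 201.5 CPM (-0.77, interval -0.99 to -0.57), and GABRB1, the beta subunit, was at 1043 and 679.1 CPM (-0.62, interval -0.73 to -0.50).

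The make-up of the CGE-like group differed too, and subclusters were therefore read one by one. All 5 CGE-like subclusters with at least 10 nuclei in both libraries had less GRIK1, GRIN3A and GABRB1 in the deeper band, and with equal weights the log2 ratios were -0.87, -0.65 and -0.48. GRM8 was lower, at -0.77 over all CGE-like nuclei and in 4 of these 5, but with each library clustered on its own it was at 0.15. GABRA4 was lower, at -0.59, and GABRG1, from few UMIs, at -1.15. In MGE-like nuclei GRIK1 was lower, at -0.28, and GRIN3A at -0.54, from 416.0 to 285.2 CPM.

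Glial classes had lower values of a few receptor genes in the deeper band. In astrocytes 0 of 27 genes were higher, beside 5.15% of all genes, and 4 were lower, beside 3.87%: GRIA1 at 171.7 and 89.99 CPM (log2 ratio -0.93), GRM5 at 889.9 and 579.6 CPM (-0.62), GRM8 (-0.72) and GRIK1 (-0.62, interval -1.26 to 0.01). In oligodendrocytes 0 of 29 were higher, beside 4.05%, and 3 were lower, beside 2.97%: GRIA3 at 186.5 and 109.9 CPM (-0.76), GRIK1 at 28.2 and 15.2 CPM (-0.89) and GRM8 at 58.9 and 28.7 CPM (-1.04). GRM8 was likewise lower over all neurons, from 672.3 to 333.1 CPM, and GRIK1 from 160.9 to 96.0 CPM. As a share of the neuron level (upper and deeper band), oligodendrocytes held 8.76% and 8.61% of GRM8, 12.6% and 7.16% of GRIA3 and 17.6% and 15.8% of GRIK1, against 13.6% and 12.4% for the neuron transcript list. Astrocytes held 7.032% and 8.603% of GRM8, 20.1% and 10.5% of GRIA1, 37.0% and 22.8% of GRM5 and 22.2% and 24.1% of GRIK1, against 11.4% and 10.7% for the list. The part of free RNA in these results was not tested. In oligodendrocyte precursors 0 of 25 were higher, beside 5.14%, and 1 was lower, beside 4.10%: GABBR2 at 173.6 and 115.7 CPM from 64 and 55 UMIs. It was not called with CPM averaged over nuclei, with a minimum of 200 UMIs or with each library clustered on its own. The glial genes described above were within 1.5-fold between bands: in astrocytes GRIK4 was at 1470 and 1057 CPM, GRM3 at 1930 and 2299 CPM and GABRG1 at 168.4 and 181.5 CPM, and in oligodendrocytes GRM3 was at 2183 and 2169 CPM.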

How the data were processed

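Single-nucleus libraries were analysed from the UMI counts per gene and barcode that the authors deposited, which hold whole numbers without scaling, as the file headers also say. The headers give software version 3.1.0, and the submitters' processing notes name Cell Ranger 6.2.1 and 2.1.1; genome build, annotation and the handling of intronic reads are not given in the sources used here. Symbols and Ensembl identifiers come from the deposited feature tables, and no coordinates are printed.

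Nuclei with at least 500 genes were kept, and Scrublet (scanpy 1.11.5, Python 3.11.15) removed 830 (11.7%) and 1546 (16.1%) nuclei as doublets, against 5.67% and 7.69% expected. Both libraries were clustered together without the receptor genes (2000 variable genes, 30 principal components, 15 neighbours, Leiden resolution 1), and no free RNA was subtracted. Clusters were named by marker lists. Excitatory and inhibitory nuclei were clustered again; a subclass needed its own defining gene raised (CUX2, TLE4, LHX6 or ADARB2) and not the other's, a rule set after subclusters and marker levels, but not receptor values, had been seen.

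UMIs were summed per library and class as CPM. Ratios carry exact conditional binomial intervals, levels exact Poisson and shares Clopper-Pearson intervals, all 95%. UMI sums under 50 were not called. The ratio code was tested on simulated counts. Receptor genes past the fold were named, plus common subunits such as GRIA2, GRIN1, GRIN2A and GRIN2B and, between bands, up to 12 genes with 100 or more UMIs whose interval was clear of 0. Some receptor genes that the counts include are not reported here by name. The genes and lists were chosen with earlier results of these data known. Alternatives covered scaling, UMI minimum, depth, doublets, gene minimum, clustering and weighting.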

Additional observations from a re-analysis of the deposited data

Results flagged for a closer look

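In 7 cases the ratio of a gene between bands had opposite signs in 2 classes of neurons, with both counting intervals clear of 0 and at least 1 ratio past 1.5-fold. The difference between the classes was not tested, since each class and band had 1 library. GLRA2 had a log2 ratio (deeper over upper band) of -0.71 in excitatory and 0.19 in inhibitory nuclei, a difference of 0.9, which does not hold with subclusters weighted equally, where GLRA2 in excitatory nuclei was at 0.22. Between upper-layer-like and deep-layer-like nuclei, GRIK3 had -0.66 and 0.12, a difference of 0.78, and GRIN3A -0.60 and 0.55, a difference of 1.15. GABRA4 had 0.21 and -0.68, a difference of -0.88. That does not hold with nuclei thinned to 1500 UMIs, where GABRA4 in deep-layer-like nuclei was at 0.17. In upper-layer-like nuclei GRIN3A was not called with median-of-ratios scaling, thinned nuclei, each library clustered on its own or subclusters named without a defining gene. GRIK3 was not called there with 2 times as many doublets removed. Between MGE-like and CGE-like nuclei, GRM8 had 0.25 and -0.77, a difference of -1.03, which does not hold with each library clustered on its own, where GRM8 in CGE-like nuclei was at 0.15. GABRA4 had 0.19 and -0.59, a difference of -0.78, and GABRG1 0.34 and -1.15, a difference of -1.49, from few UMIs in CGE-like nuclei. With each library clustered on its own, GABRA4 in CGE-like nuclei was within 1.5-fold. With 5 CGE-like subclusters weighted equally it was at -0.35, also within 1.5-fold. The deep-layer-like group of the deeper band held 237 nuclei, and its subclusters had other sizes than in the upper band.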

How the results depend on the processing

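No paired analysis was possible because each band had 1 library, and for the same reason no library could be left out. Over all alternatives, 349 counts of genes past the fold stayed within 1.5 times and 53 did not; among ratios of single genes named here 5506 stayed within their interval, 418 moved further and 6 changed sign. Counts for inhibitory over excitatory and for deep-layer-like over upper-layer-like nuclei stayed within 1.5 times under every alternative run. The cause of the changes below was not tested. Median-of-ratios scaling left 3 genes lower in the deeper band in upper-layer-like nuclei in place of 5, and 14 lower in vascular cells than in neurons in place of 5. Averaging CPM over nuclei, 0 genes were higher in the deeper band in excitatory, 1 in inhibitory and 2 in deep-layer-like nuclei, 0 were lower in precursors, 3 were higher in CGE-like than in MGE-like nuclei, 1 was higher in CGE-like nuclei between bands and 9 were lower in vascular cells, and GABRR3 in oligodendrocytes over neurons of the upper band turned to 0.082. A minimum of 20 UMIs gave 2 lower genes in deep-layer-like nuclei, 1 higher in astrocytes, 1 higher and 6 lower in oligodendrocytes and 2 lower in precursors. A minimum of 200 UMIs gave 0 lower genes in inhibitory and in MGE-like nuclei, 2 in astrocytes and 0 in precursors.

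Thinned to 1500 UMIs, 0 genes were lower in the deeper band in inhibitory and 3 in upper-layer-like nuclei, 2 were higher in CGE-like than in MGE-like nuclei, in MGE-like nuclei 1 was higher and 0 lower between bands, 11 were lower in vascular cells, and GABRA4 between bands in deep-layer-like nuclei turned to 0.17. Shares then were, in the upper and deeper band, 37.8% and 35.7% for GRIA2 in excitatory and 25.6% and 22.8% for GRIA2 in inhibitory nuclei. With no doublets removed, 1 gene was higher and 0 lower in inhibitory nuclei, 0 were lower in deep-layer-like nuclei and 2 in precursors, and GRM2 between bands in inhibitory nuclei turned to 0.082. In inhibitory nuclei GRIA2 then took 25.8% and 25%, and GRIN2A 15.4% in the deeper band. With 2 times as many doublets removed, 2 genes were lower in inhibitory and in MGE-like, 3 in upper-layer-like and 2 in deep-layer-like nuclei, 2 were higher in CGE-like than in MGE-like nuclei, and 3 were lower in vascular cells.

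A minimum of 1000 genes gave 2 higher and 2 lower genes in deep-layer-like nuclei, 1 higher in CGE-like nuclei and 2 lower in precursors. Clustering with the receptor genes gave 2 lower genes in deep-layer-like nuclei. Resolution 2 gave 4 lower genes in microglia in place of 24 and 18 in vascular cells, with GRIK4 in microglia over neurons of the upper band at 0.087, and 1 higher gene between bands in CGE-like nuclei. With each library clustered on its own, 3 genes were lower in upper-layer-like and 3 in deep-layer-like nuclei, 0 in precursors, 1 was higher and 3 lower in CGE-like nuclei, with GRM8 there at 0.15, and 24 were lower in vascular cells. Subclusters named without a defining gene, a choice made after the data had been seen, left 2 lower genes in upper-layer-like nuclei. Weighting subclusters equally, also chosen then, gave 0 higher and 1 lower gene in excitatory nuclei, with GLRA2 at 0.22, and 1 higher and 0 lower in inhibitory nuclei. Depth was lower outside neurons: medians were 1126.5 to 2859 UMIs per nucleus in glial and vascular classes and 7245 to 10750.5 in excitatory and inhibitory nuclei.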
